A study of Mus musculus with 7 samples.

Results

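The receptors examined here are surface proteins of platelets, most of which act when platelets meet a damaged vessel wall, encoded by 7 genes: Gp1ba, Gp1bb, Gp9 and Gp5 for the GPIb-IX-V complex, Gp6 for GPVI, Clec1b for CLEC-2 and Treml1 for TLT-1. They were chosen by name, and all 7 were found among the 34932 genes of the deposited files. Each was followed in 7 RNA-seq libraries of mouse LT-HSCs, long-term haematopoietic stem cells able to renew the whole blood system. They were taken from bone marrow by a sort for cells without lineage markers or CD48 that carry Sca-1, c-Kit and CD150. The 4 libraries of the first group are labelled B4galt1 KO, with the genotype 129S1/C57Bl/6, B4-/-, which the series describes as a full knockout. The 3 libraries of the second are labelled B4galt1 WT, on the same 129S1/C57Bl/6 background. The labels give no age, sex or treatment. They do not say that replicates are separate animals, so each p-value refers to the spread among these samples alone, which may be technical in part.

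GPIb-IX-V binds von Willebrand factor, and GPIb alpha carries the binding site while GPIb beta and GPIX hold the complex together at the membrane. GPVI is the collagen receptor and signals through the Fc receptor gamma chain, whose ITAM tyrosines recruit the kinase Syk. CLEC-2, the receptor for podoplanin, recruits Syk through a hemITAM, a motif with a single tyrosine, in its own tail. TLT-1 is stored in the alpha-granules and carries an inhibitory-type ITIM motif. All are textbook products of megakaryocytes, and LT-HSCs are known to carry RNA of some megakaryocyte genes at a low level.

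Totals ran from 24724079 to 34941390 estimated reads in the KO libraries and from 23508985 to 30325691 in the WT libraries. B4galt1 itself did not separate the groups. Its levels were 19.3, 14.9, 14.8 and 14.6 CPM (reads scaled to a common library size) in KO replicates 1 to 4, against 19.2, 24.4 and 11.3 CPM in WT replicates 1 to 3 (log2 fold change -0.20, edgeR adjusted p = 0.758). Sums over a whole gene do not show whether an exon is missing, so each direction below rests on the labels. The sum of 4 Y-linked genes was 10.9 CPM in KO replicate 4 and 6.04 CPM in WT replicate 3 and at least 255.7 CPM in the other 5 libraries, so each group held 1 library without the male pattern. Kit and Slamf1, which encode c-Kit and CD150 of the sort, had RNA in every library. Kit lay at 208.8 to 327.2 CPM in KO and 254.6 to 390.6 CPM in WT, and Slamf1 at 67.8 to 112.0 CPM in KO and 72.5 to 128.4 CPM in WT. Of 16 LT-HSC markers tested, these among them, 13 had a log2 fold change below 0 and 3 above. Their median was -0.41, against 0.03 over all genes tested. Cd48, whose protein the sort gates against, was at 105.3, 126.0, 141.8 and 129.7 CPM in the KO replicates, 1 to 4 and at 25.2, 14.0 and 32.3 CPM in WT replicates 1 to 3 (log2 fold change 2.40, edgeR adjusted p = 0.000804).

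The 7 genes lie at separate places. The promoters are printed because most of the genes were lower in the KO libraries and all share a lineage. GATA and ETS factors are also known to act on megakaryocyte genes. Each run holds the 200 bases before the RefSeq start of the gene in GRCm38.p6, 5' to 3' on the gene's strand, with capitals marking GATA words (AGATAA or its variants that begin with T or end in G, on either strand).
Gp1ba (chr11:70638922-70639121, plus strand): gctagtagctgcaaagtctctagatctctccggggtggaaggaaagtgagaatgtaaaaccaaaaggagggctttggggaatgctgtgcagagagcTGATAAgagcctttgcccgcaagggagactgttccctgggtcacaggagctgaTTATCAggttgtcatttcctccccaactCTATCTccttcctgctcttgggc
Gp1bb (chr16:18622404-18622603, minus strand): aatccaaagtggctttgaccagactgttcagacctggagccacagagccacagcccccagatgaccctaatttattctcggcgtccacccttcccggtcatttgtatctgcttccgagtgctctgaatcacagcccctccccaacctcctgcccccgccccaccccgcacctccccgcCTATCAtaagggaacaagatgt
Gp9 (chr6:87777870-87778069, plus strand): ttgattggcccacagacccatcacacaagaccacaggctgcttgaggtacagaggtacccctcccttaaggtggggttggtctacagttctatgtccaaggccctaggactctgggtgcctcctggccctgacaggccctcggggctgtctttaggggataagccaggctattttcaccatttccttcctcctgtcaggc
Gp5 (chr16:30310782-30310981, minus strand): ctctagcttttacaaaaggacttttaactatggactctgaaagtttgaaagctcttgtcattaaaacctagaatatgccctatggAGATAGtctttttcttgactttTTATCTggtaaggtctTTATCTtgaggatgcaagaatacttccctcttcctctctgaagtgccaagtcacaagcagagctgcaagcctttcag
Gp6 (chr7:4397745-4397944, minus strand): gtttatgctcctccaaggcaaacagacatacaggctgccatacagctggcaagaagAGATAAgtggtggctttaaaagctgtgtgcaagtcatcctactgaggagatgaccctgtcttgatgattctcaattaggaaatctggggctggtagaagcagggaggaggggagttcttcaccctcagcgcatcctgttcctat
Clec1b (chr6:129397097-129397296, plus strand): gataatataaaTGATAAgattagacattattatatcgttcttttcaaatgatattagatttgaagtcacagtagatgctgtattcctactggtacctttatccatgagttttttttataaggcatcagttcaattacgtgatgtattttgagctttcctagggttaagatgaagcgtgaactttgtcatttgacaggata
Treml1 (chr17:48359716-48359915, plus strand): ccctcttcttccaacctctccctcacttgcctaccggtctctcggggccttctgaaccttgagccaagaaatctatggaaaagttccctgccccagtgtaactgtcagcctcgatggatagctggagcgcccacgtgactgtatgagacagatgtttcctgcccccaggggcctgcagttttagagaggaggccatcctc
In the 250 bases before the start, 5 of the 7 held a GATA word, Gp9 and Treml1 being the exceptions, against 26.5% of the 32851 RefSeq windows of that length. Gp1ba and Gp5 held 3 each. An ETS word (AGGAAG or its variants that begin with C or end in A, on either strand) was found in all 7 and in 57.2% of all windows. Each kind of word was searched for separately, and words that share bases were not removed. A word is a match of letters and not a shown binding site.

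Of the 7 receptor genes 6 fell in the KO libraries and 0 rose, by the quasi-likelihood test of edgeR at an adjusted p below 0.05. The background of lower calls was 1.66% of the 14695 genes tested, and that of higher calls 0.599%. The median log2 fold change (KO minus WT) of the 7 was -2.18, against 0.03 over all genes tested. Group ranges did not overlap for 6 of the 7, lower in KO each time, against 7.47% of all genes tested, and 8.23% were apart with KO higher. The changes fell into 2 sizes: Gp6 was 164-fold and Clec1b 74.9-fold lower in KO, while Gp1ba, Gp1bb, Gp9 and Treml1 were between 2.75-fold and 4.82-fold lower and Gp5 overlapped between the groups. In bulk samples, fewer cells that carry an RNA and less of it per cell cannot be told apart.

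**Figure D1:**
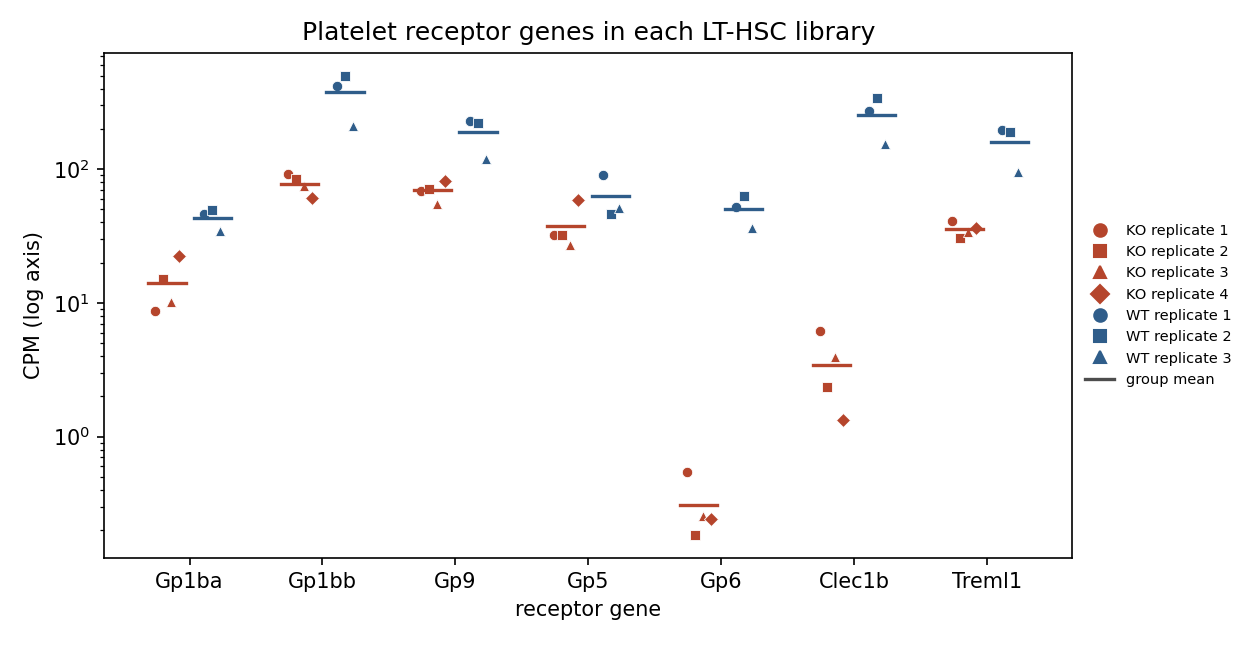
CPM of the 7 receptor genes on a log axis, with 1 point for each library, KO left of WT, and a line at each group mean. Gp6 lies below 0.6 CPM in the 4 KO libraries and above 36 CPM in the 3 WT libraries, and Gp5 is the only gene of the 7 whose groups overlap.

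GPIb alpha, the ligand-binding chain, is encoded by Gp1ba (chromosome 11, 70639122 to 70642036, plus strand). Its RNA stood at 8.63, 15.0, 10.1 and 22.6 CPM in the KO replicates, 1 to 4, against 46.2, 49.2 and 34.3 CPM in WT replicates 1 to 3. All KO values lay below all WT values, with KO replicate 4 nearest to WT. The mean was 14.1 ± 6.29 CPM in KO (SD, n = 4) and 43.2 ± 7.90 CPM in WT (SD, n = 3), a log2 fold change of -1.61 (SE 0.315, edgeR adjusted p = 0.0246). This was the receptor call that rested on few libraries: adjusted p was 0.0754, 0.0708, 0.0914 and 0.0854 without KO replicate 2, KO replicate 3, WT replicate 1 and WT replicate 2.

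GPIb beta, joined to GPIb alpha by disulphide bonds, is encoded by Gp1bb (chromosome 16, 18620317 to 18622403, minus strand). Gp1bb was at 91.2, 84.7, 74.7 and 60.8 CPM in the KO replicates, 1 to 4, against 418.2, 497.6 and 209.5 CPM in WT replicates 1 to 3. The KO libraries stayed close together and all lay below the WT libraries, of which replicate 3 was the lowest. The mean was 77.9 ± 13.2 CPM in KO (SD, n = 4) and 375.1 ± 148.8 CPM in WT (SD, n = 3), with a log2 fold change of -2.27 (SE 0.271, edgeR adjusted p = 0.00117). The exons of Gp1bb overlap on the same strand with those of Sept5, a septin gene, and of Gm49601. Reads assigned to Gp1bb made up 96.0% to 99.8% of the 3 genes' sum, and Sept5 stood at 0.585 to 2.46 CPM in KO and 0.890 to 2.93 CPM in WT.

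GPIX, the small subunit without which the complex does not reach the surface in humans, is encoded by Gp9 (chromosome 6, 87778072 to 87779768, plus strand). Gp9 was at 69.0, 70.9, 55.3 and 81.7 CPM in the KO replicates, 1 to 4, against 230.2, 221.6 and 119.0 CPM in WT replicates 1 to 3. The groups were apart, and WT replicate 3 came nearest to the KO libraries. Its log2 fold change came to -1.46 (SE 0.234, edgeR adjusted p = 0.00761).

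GPV, the subunit cleaved by thrombin, is encoded by Gp5 (chromosome 16, 30307685 to 30310779, minus strand) and was the receptor gene that did not pass. Gp5 was at 32.2, 32.4, 27.3 and 59.1 CPM in the KO replicates, 1 to 4, against 91.1, 46.0 and 51.1 CPM in WT replicates 1 to 3. KO replicate 4 exceeded WT replicates 2 and 3, and the other 3 KO libraries lay below all WT libraries. The log2 fold change came to -0.73 (SE 0.307, 95% interval -1.41 to -0.05, edgeR adjusted p = 0.306). It was -1.03 without KO replicate 4 (adjusted p = 0.0747) and -1.16 among the 5 libraries with the male pattern (adjusted p = 0.0751), and -1.12 with limma voom and sample quality weights, where it passed (adjusted p = 0.0184). It was -0.38 without WT replicate 1.

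GPVI, the collagen receptor, is encoded by Gp6 (chromosome 7, 4363965 to 4397744, minus strand) and showed the largest change among the 7. Its RNA stood at 0.546, 0.185, 0.256 and 0.243 CPM in the KO replicates, 1 to 4, against 51.8, 63.2 and 36.2 CPM in WT replicates 1 to 3. These levels rest on 14.1, 5.3, 6.6 and 9.1 estimated reads in the KO libraries and on 1526, 1349 and 840 in the WT libraries. The log2 fold change came to -7.36 (SE 0.370, 95% interval -8.18 to -6.54, edgeR adjusted p = 7.95e-06), or 164-fold lower in KO. Both annotated transcripts of Gp6 fell together: that of 5900 nt held 5.3 to 9.05 estimated reads in KO libraries and 665.6 to 1188 in WT libraries, and that of 965 nt held 5.82 in KO replicate 1 and 0 in the other KO libraries, against 174.6 to 338.0 in WT.

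CLEC-2 is encoded by Clec1b (chromosome 6, 129397297 to 129409335, plus strand). Clec1b was at 6.13, 2.33, 3.95 and 1.32 CPM in the KO replicates, 1 to 4, against 271.2, 339.1 and 152.9 CPM in WT replicates 1 to 3. The lowest WT library stood far above the highest KO library. The log2 fold change came to -6.23 (SE 0.491, 95% interval -7.31 to -5.14, edgeR adjusted p = 6.89e-05), or 74.9-fold lower in KO. The intervals of Gp6 and Clec1b overlapped each other and did not overlap those of the other 5 receptor genes, and the difference between genes was not tested.

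Part of the Clec1b reads in KO libraries fell on a transcript that does not code for the receptor. An annotated transcript of 4347 nt that retains an intron held 85.5, 15.2, 26.0 and 1.10 estimated reads in KO replicates 1 to 4, which is 54.6%, 24.0%, 24.1% and 2.24% of the gene's reads. In WT replicates 1 to 3 it held 247.2, 236.5 and 196.2, which is 3.10%, 3.27% and 5.53%. The share was higher than in WT in 3 of 4 KO libraries and lower in KO replicate 4, so the groups overlapped. The 3 coding transcripts together were at 2.21 ± 0.806 CPM in KO (SD, n = 4) and 244.9 ± 93.0 CPM in WT (SD, n = 3), and the ratio of WT to KO means was 111. Clec1b also overlaps Clec9a, a C-type lectin gene of dendritic cells, which had between 0 and 25.3 estimated reads in KO libraries and between 20 and 94 in WT libraries. With the reads of both genes summed, a setting chosen after the data were seen, the log2 fold change came to -6.03 (adjusted p = 0.000115).

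**Figure D2:**
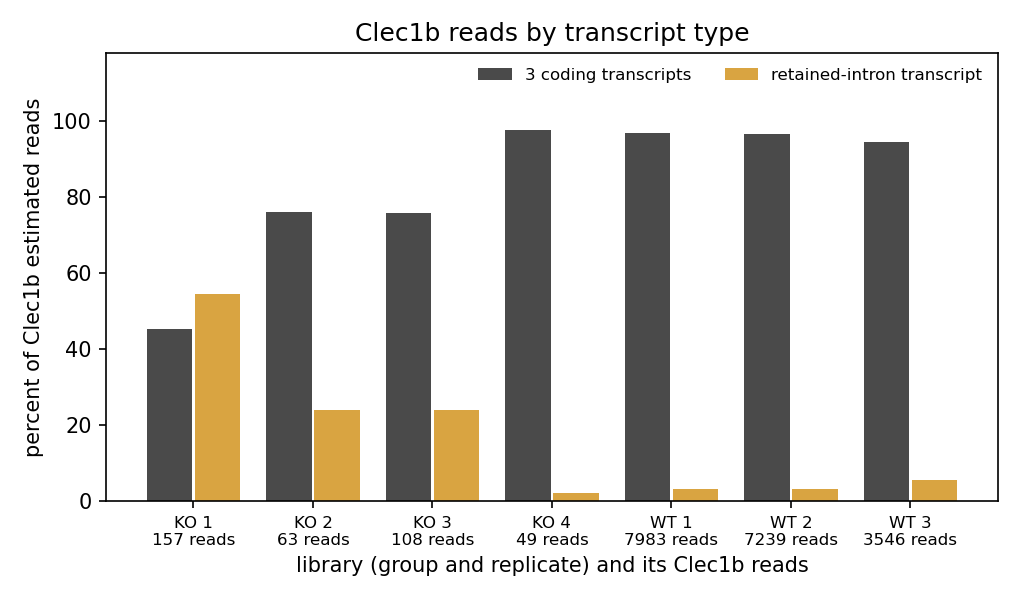
Share of the Clec1b estimated reads of each library that falls on the 3 coding transcripts (grey bars) and on the retained-intron transcript (yellow bars), KO libraries left of WT libraries. The yellow bars reach 54.6% in KO replicate 1 and lie between 2.24% and 5.53% in KO replicate 4 and the WT libraries, and the KO shares rest on few reads.

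TLT-1 is encoded by Treml1 (chromosome 17, 48359916 to 48367176, plus strand). Treml1 was at 41.0, 30.5, 33.9 and 36.0 CPM in the KO replicates, 1 to 4, against 195.5, 189.2 and 94.98 CPM in WT replicates 1 to 3. The groups were apart and the KO libraries were close together. The log2 fold change came to -2.18 (SE 0.242, edgeR adjusted p = 0.000747), a value near that of Gp1bb. Coding transcripts held 97.3% to 99.0% of Treml1 reads in KO and 97.4% to 98.9% in WT. Its neighbour Trem2, another receptor gene of the family, was at 0.924 to 1.41 CPM in KO and 0.949 to 2.76 CPM in WT.

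Levels of different receptors were compared per transcript length, as the TPM that the authors deposited. In KO the order of mean TPM was Gp1bb (135.4 ± 11.1), Gp9 (123.4 ± 31.0), Treml1 (38.7 ± 6.66), Gp5 (25.5 ± 12.9), Gp1ba (6.06 ± 3.39), Clec1b (3.41 ± 1.80) and Gp6 (0.111 ± 0.139), each as SD with n = 4. Ranges of neighbours overlapped for Gp1bb and Gp9, for Treml1 and Gp5, and for Gp1ba and Clec1b. In WT the order was Gp1bb (587.6 ± 189.2), Clec1b (309.4 ± 89.2), Gp9 (289.5 ± 78.8), Treml1 (149.2 ± 45.9), Gp5 (37.0 ± 15.6), Gp6 (17.3 ± 3.10) and Gp1ba (15.4 ± 1.92), each as SD with n = 3. Here ranges of neighbours overlapped for Clec1b and Gp9 and for Gp6 and Gp1ba. Clec1b thus stood at place 6 of the 7 in KO and at place 2 in WT.

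The shares of the subunit genes within GPIb-IX-V were also compared. Gp1bb took 36.1% to 52.3% of the summed TPM of the 4 subunit genes in KO libraries and 59.7% to 67.6% in WT libraries. Gp9 took 38.8% to 47.9% in KO and 28.7% to 32.8% in WT, and Gp5 took 6.87% to 12.8% in KO and 2.25% to 5.27% in WT. The groups were apart for these 3 shares, while that of Gp1ba overlapped, at 1.16% to 3.12% in KO and 1.46% to 2.16% in WT. Shares of 1 sum are not independent of each other, and they are given as a description. Gp1ba, whose protein is the ligand-binding chain, was the lowest of the 4 in every library. The ratio of Clec1b to Gp6 TPM was 17.0 to 106 in KO and 15.1 to 19.8 in WT, and the groups overlapped. In KO it divides by Gp6 levels of 0.0326 to 0.319 TPM, which rest on 5.3 to 14.1 estimated reads. The Clec1b TPM also includes its retained-intron transcript.

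**Figure D3:**
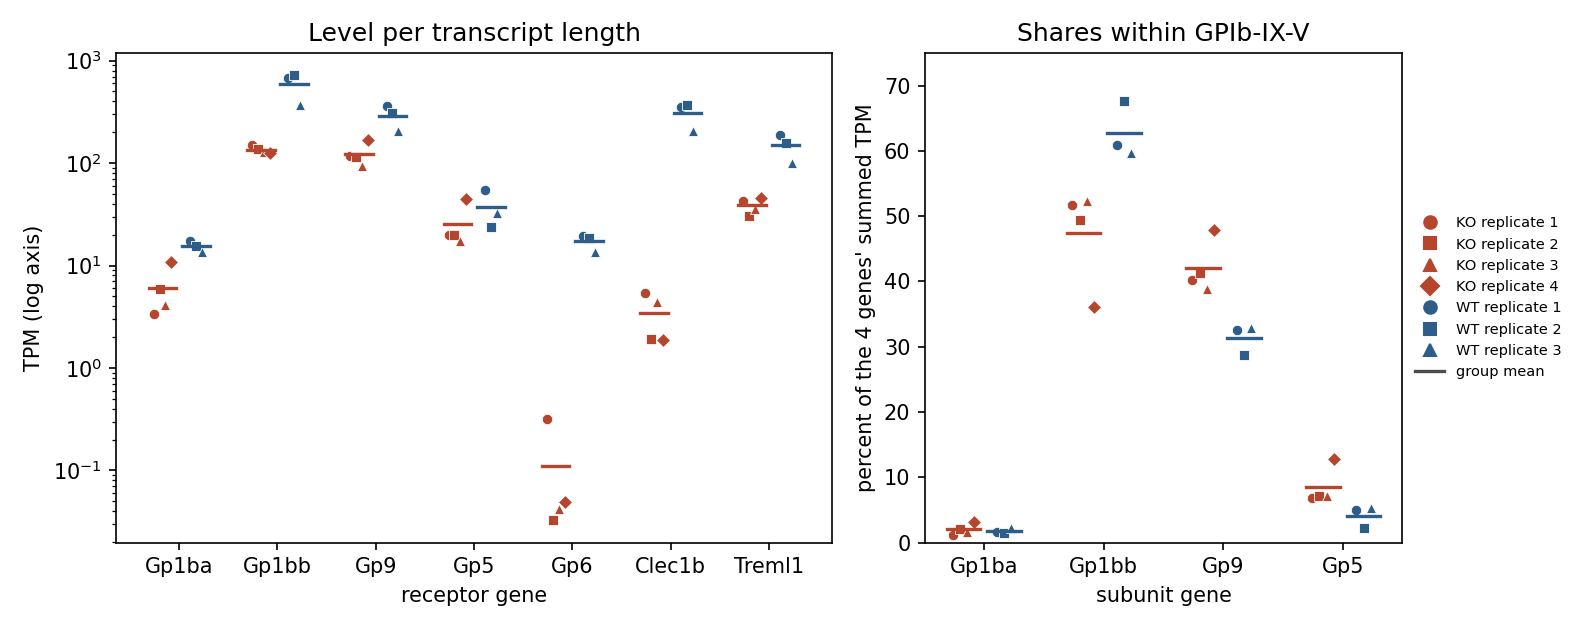
Left, deposited TPM of each receptor gene on a log axis, and right, share of each subunit gene in the summed TPM of Gp1ba, Gp1bb, Gp9 and Gp5, with 1 point for each library, KO left of WT, and a line at each group mean. Clec1b is below 6 TPM in KO and above 200 TPM in WT, and the Gp1bb share is at most 52.3% in KO and at least 59.7% in WT.

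The WT libraries differed in receptor level. WT replicate 3 was the lowest of the 3 for 6 of 7 receptor genes, Gp5 being the exception, and the highest for 0. WT replicate 1 was highest for 3 of the 7 and WT replicate 2 for 4. The share of all genes that were lowest in WT replicate 3 was not counted. In KO no library was lowest for more than 2 of the 7, while replicate 1 was highest for 4, replicate 4 for 3 and the other KO libraries for 0. WT replicate 3 is the WT library without the male pattern. Among the 5 libraries with that pattern 6 receptor genes fell and 0 rose. Over the 15026 genes tested in that fit, 256 were called lower and 92 higher. Gp1ba was at -2.07 there (edgeR adjusted p = 0.00312) and Clec1b at -6.19 (edgeR adjusted p = 3.64e-05) on the log2 scale.

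Most genes that carry the signal of GPVI and CLEC-2 inward did not pass. Of 28 signalling genes tested 4 fell and 1 rose, with a median log2 fold change of -0.07 against 0.03 over all genes tested; 2.26% of all genes were called in either direction. Fcer1g, the gamma chain that GPVI needs, was at 115.1, 81.7, 128.9 and 51.5 CPM in the KO replicates, 1 to 4 and at 173.2, 271.8 and 107.8 CPM in WT replicates 1 to 3. Its groups overlapped and it did not pass (log2 fold change -0.97, edgeR adjusted p = 0.222). The kinase gene Syk, used by both receptors, was at 49.0 to 62.6 CPM in KO and 61.2 to 91.1 CPM in WT and did not pass (log2 fold change -0.39, edgeR adjusted p = 0.342). The adaptor gene Lcp2, which encodes SLP-76, was at -0.31 and the phospholipase gene Plcg2 at 0.02, and neither passed.

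The signalling genes that fell were Grap2, Rasgrp2, Src and Lat. Grap2, the adaptor Gads that links LAT to SLP-76, was at 3.63, 1.04, 2.12 and 2.16 CPM in the KO replicates, 1 to 4, against 20.5, 32.8 and 27.2 CPM in WT replicates 1 to 3 (log2 fold change -3.59, SE 0.379, edgeR adjusted p = 0.000546). Rasgrp2, an exchange factor that activates Rap1 in platelets, was at 65.7 to 90.3 CPM in KO and 187.7 to 261.5 CPM in WT (log2 fold change -1.41, edgeR adjusted p = 0.00168). Src, a kinase gene, fell by 2.31 and Lat, the membrane adaptor, fell by 0.69 on the log2 scale (edgeR adjusted p = 0.0265 and 0.0449). Src lost its call without KO replicate 2, KO replicate 3 or WT replicate 2 and with the replicate block (adjusted p at most 0.111 over 18 alternatives), and Lat with each library left out in turn and with the block (at most 0.185). Over the alternatives 2 to 6 genes of the list fell and 1 to 2 rose. Lat2, an adaptor related to Lat, rose, at 20.6 to 29.4 CPM in KO and 6.25 to 9.72 CPM in WT (log2 fold change 1.61, edgeR adjusted p = 0.00601).

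Of 17 genes for inhibitory receptors, phosphatases and ligases of the same cascade 3 fell and 0 rose, with a median of -0.11. Over all genes tested 1.66% were called lower and 0.599% higher. Mpig6b, the inhibitory receptor G6b-B, had the largest change, at 0.664, 0.111, 0.0731 and 0.0270 CPM in the KO replicates, 1 to 4, against 70.0, 55.4 and 37.6 CPM in WT replicates 1 to 3. Its log2 fold change came to -8.03 (edgeR adjusted p = 7.85e-05), on 1 to 17 estimated reads in each KO library. For Mpig6b it was -9.60 without KO replicate 1 and -7.58 without KO replicate 4, and the call held in all 18 alternatives. Ptprj, the phosphatase CD148 that activates Src kinases, fell by 1.5 on the log2 scale (edgeR adjusted p = 0.0187), a call lost without KO replicate 2, KO replicate 3 or WT replicate 1 and with the block (at most 0.0942 over the alternatives). Ubash3b, the phosphatase that dampens Syk, fell by 1.35 (edgeR adjusted p = 0.00444). Ptpn12 was at -0.75 and did not pass (edgeR adjusted p = 0.120; with DESeq2 it did).

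Of 22 ligand, tail partner and sheddase genes 14 were tested, and by edgeR 3 fell and 0 rose, with a median of -0.21. The background was 1.66% lower and 0.599% higher calls over all genes tested. DESeq2 and limma voom each gave 1 higher, Mmp14, and 2 to 4 genes fell over the alternatives. Vwf, the ligand of GPIb alpha, was at 52.8, 31.3, 32.7 and 49.3 CPM in the KO replicates, 1 to 4, against 138.7, 180.8 and 102.7 CPM in WT replicates 1 to 3 (log2 fold change -1.76, edgeR adjusted p = 0.0036). Thbs1, which encodes thrombospondin-1, fell by 5.07 on the log2 scale (edgeR adjusted p = 0.000233). Flna, whose product filamin A ties the tail of GPIb alpha to actin, was at 70.4 to 85.4 CPM in KO and 104.9 to 215.5 CPM in WT (log2 fold change -1.13, edgeR adjusted p = 0.0279). Flna lost its call in 6 of 18 alternatives, without KO replicate 1, 2 or 3 or WT replicate 1 or 2 and with the block (adjusted p at most 0.113). The sheddase genes did not pass: Adam17, which cuts GPIb alpha, was at 0.19 and Adam10, which cuts GPVI in mice, at 0.01, the sign of both depending on the setting. Mmp14 was at 1.48 and did not pass by edgeR (adjusted p = 0.0902), against 0.00469 with DESeq2, the lowest of the alternatives. Pdpn, which encodes podoplanin, had 1 read in the KO libraries and 0 in the WT libraries.

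**Figure D4:**
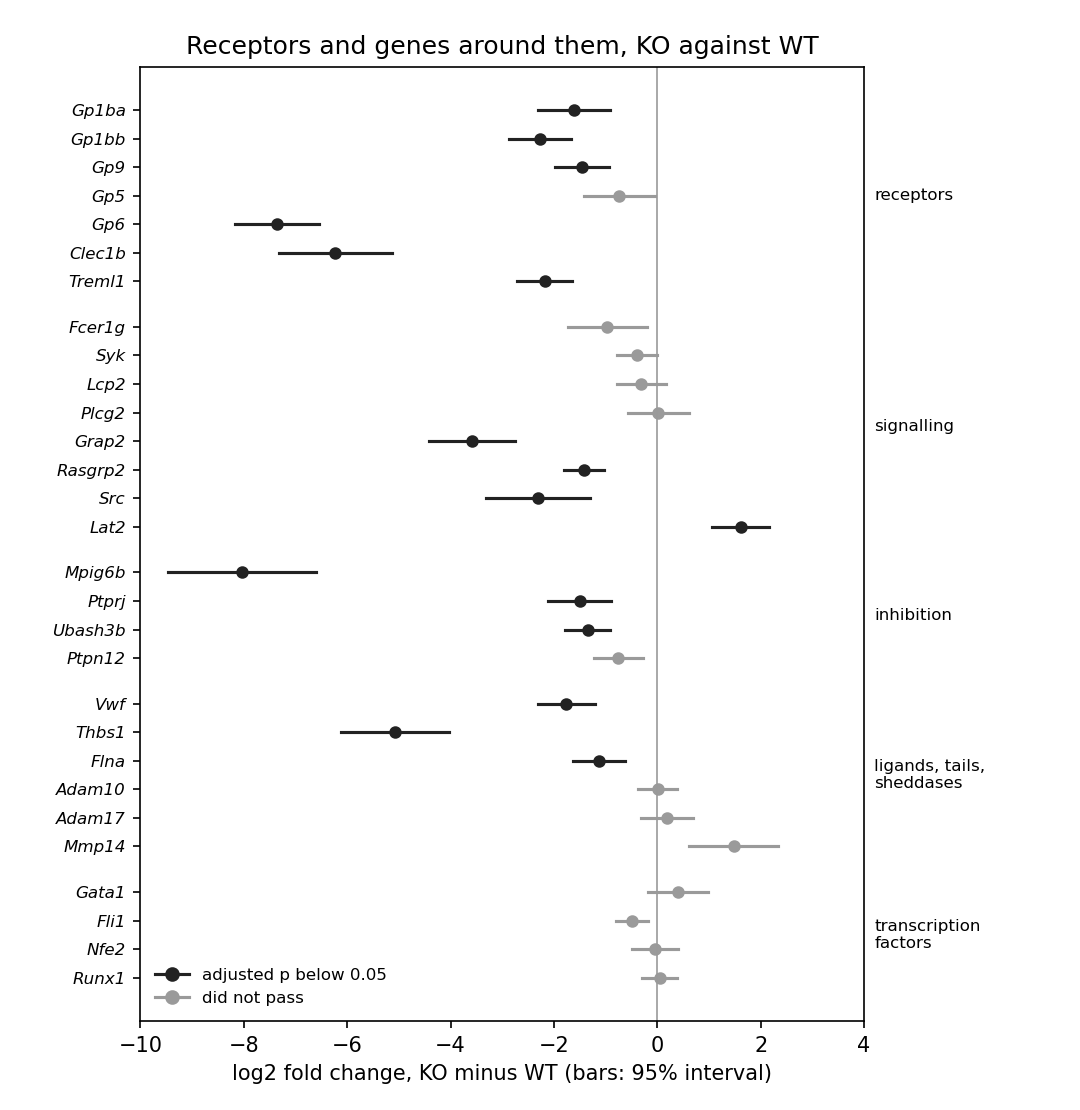
Log2 fold change of KO minus WT for the receptors and for genes around them, with bars for the 95% interval from edgeR and grey for genes that did not pass at an adjusted p below 0.05. Gp6 at -7.36 and Clec1b at -6.23 lie far left of Fcer1g at -0.97, Syk at -0.39 and Gata1 at 0.40.

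Among 20 transcription factor genes of the megakaryocyte lineage 0 passed by edgeR (unadjusted p below 0.05 in 1 higher and 2 lower), while DESeq2 gave 1 lower, Fli1, and limma voom 0. With 2.26% of all genes called in either direction, 0 of 20 is near the background. Their median log2 fold change came to -0.02. Gata1, which drives many megakaryocyte genes, was at 70.7, 84.4, 86.8 and 130.3 CPM in the KO replicates, 1 to 4 and at 83.2, 45.8 and 82.9 CPM in WT replicates 1 to 3. The ETS factor gene Fli1 was at 147.7 to 178.2 CPM in KO and 209.4 to 240.2 CPM in WT, apart but not past the edgeR test (log2 fold change -0.48, edgeR adjusted p = 0.132). Nfe2 was at -0.04 and Runx1 at 0.05, Spi1 at 0.44, Lmo2 at -0.30 and Tal1 at -0.51, and none of these passed.

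Most other megakaryocyte and platelet markers were also lower in KO. Of 38 such genes, none of them a receptor of the 7, 25 fell and 0 rose (21 to 28 and 0 over the alternatives), with a median of -1.47. Lower calls made up 1.66% and higher calls 0.599% of all genes tested. Of the 25, 3 (Vwf, Mpig6b and Ptprj) were also counted above. The sum of the 38 was 4188 to 4817 CPM in KO and 11930 to 18870 CPM in WT, and the sum of the 7 receptors 205.5 to 261.7 CPM in KO and 697.9 to 1406 CPM in WT. Ppbp, a platelet chemokine gene, was at 13.5 to 21.1 CPM in KO and 1468 to 3579 CPM in WT, and Myl9, a myosin light chain gene, at 0.156 to 1.49 CPM in KO and 345.7 to 457.5 CPM in WT. F13a1, a clotting factor subunit gene, was at -6.24 and Alox12, a lipoxygenase gene, at -6.09 on the log2 scale. None of the 38 was at 0 in all libraries. The part of cells or RNA of that lineage in the receptor levels was not tested.

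Markers of other cells were given the same way, beside the edgeR background of 1.66% lower and 0.599% higher calls over all genes tested. LT-HSC markers had 1 of 16 lower by edgeR, Mllt3 (log2 fold change -1.15), and 0 to 3 lower over the alternatives, and summed to 1855 to 2219 CPM in KO and 2356 to 2791 CPM in WT. Procr was at -0.98, Fgd5 at -1.16 and Mecom at -0.55, and these did not pass by edgeR. Mllt3 lost its call in 3 of 18 alternatives (without KO replicate 2, without WT replicate 3 and among male-pattern libraries), while Procr passed in 5 and Fgd5 in 1. Genes of cells that the sort should remove had 1 of 8 tested higher, Cd48, and summed to 160.7 to 213.6 CPM in KO and 40.5 to 69.0 CPM in WT, with Ncr1 and Ly6g at 0 in all libraries. Cd48 alone made up most of that sum in each KO library, at 105.3 to 141.8 CPM, against 14.0 to 32.3 CPM in WT. The KO sums thus mainly show that gene. Of the 8 tested, 7 had a log2 fold change above 0 and 1 below. Their median was 0.81, against 0.03 over all genes tested, and unadjusted p was below 0.05 in 4 higher and 0 lower. Flt3 at 1.15, Itgam at 1.61 and Il7r at 2.49 did not pass. Erythroid markers had 0 of 14 passing by edgeR (unadjusted p below 0.05 in 4 higher and 2 lower) and at most 2 lower and 1 higher over the other tools and settings. They summed to 1869 to 3942 CPM in KO and 2066 to 3868 CPM in WT, with Slc4a1 at 0, and Hba-a1 (-5.06), Hba-a2 (-4.14), Tfrc (0.75) and Hbb-bt (1.51) did not pass. KO replicate 1 held most of the KO reads of Hba-a1 and Hba-a2 and made both folds smaller. Without it Hba-a1 was at -8.38 (edgeR adjusted p = 0.00033) and Hba-a2 at -8.45 (0.000285). Without KO replicate 4 they were at -4.61 and -3.70. Hba-a1 passed in 7 and Hba-a2 in 2 of 18 alternatives. Granulocyte and monocyte markers had Ms4a3 higher (1.70) and S100a9 lower (-2.23) of 16, with Mpo (2.48) and S100a8 (-2.55) not past the edgeR test, and summed to 661.6 to 841.6 CPM in KO and 798.8 to 926.6 CPM in WT. Over the alternatives 0 to 4 of them were higher and 0 to 4 lower: Ms4a3 lost its call in 5 of 18 (without KO replicate 1, 2 or 3 or WT replicate 1 or 3) and S100a9 in 8 (without any library but WT replicate 1, with the block and among male-pattern libraries), while Mpo passed in 9 and S100a8 in 5. Lymphoid markers had 0 of 11 passing by edgeR (unadjusted p below 0.05 in 3 higher and 0 lower) and at most 1 higher and 0 lower over the other tools and settings, and summed to 239.1 to 417.7 CPM in KO and 202.9 to 274.4 CPM in WT, with Pax5 and Ncr1 at 0 in all libraries. Dntt was at 3.40, Nkg7 at 0.71 and Cd8a at -0.57, and these did not pass. Their part in the receptor levels was not tested.

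**Figure D5:**
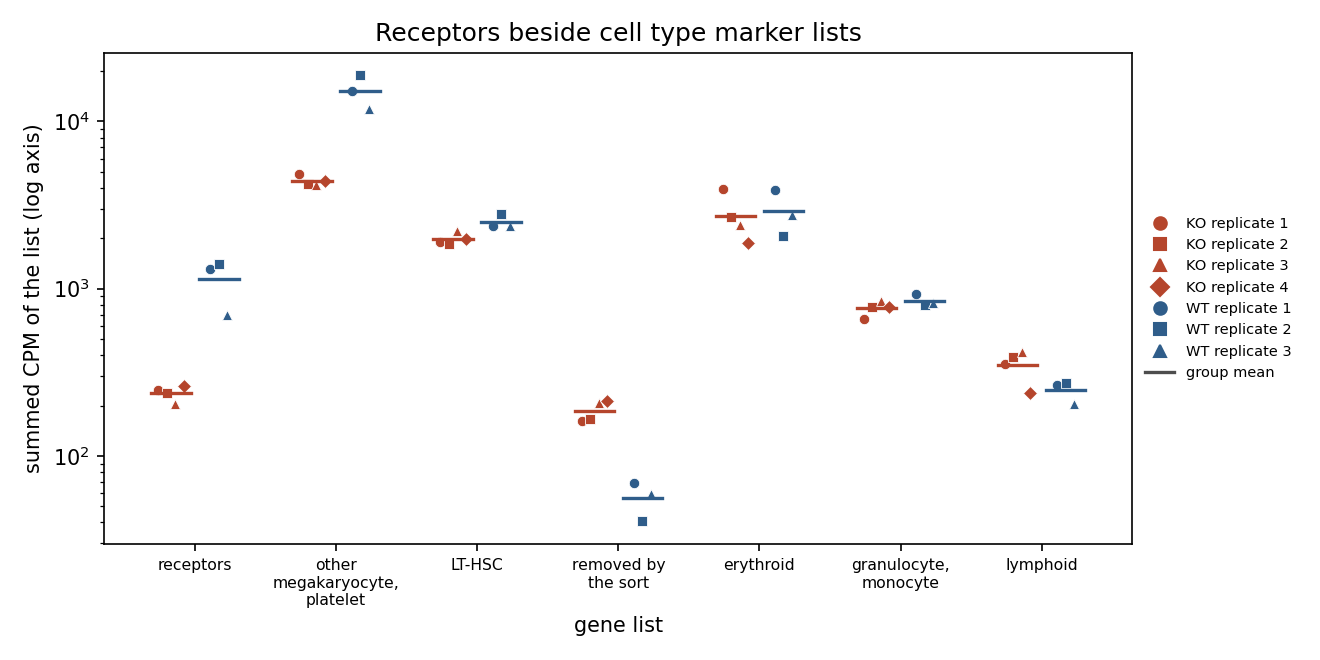
Summed CPM of the 7 receptors and of each marker list on a log axis, with 1 point for each library, KO left of WT, and a line at each group mean. The other megakaryocyte and platelet markers are at most 4817 CPM in KO and at least 11930 CPM in WT, while the erythroid sums overlap.

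The genes around the receptors in the genome were read from the same fit. Of 27 annotated genes that overlap a receptor gene or lie within 20 kb of one, 13 were tested, 1 fell and 0 rose, with a median log2 fold change of -0.55, against 1.66% lower calls and a median of 0.03 over all genes tested. That gene was Clec1a, a C-type lectin gene beside Clec1b, at 11.3, 9.24, 6.91 and 4.81 CPM in the KO replicates, 1 to 4, against 20.9, 19.9 and 19.7 CPM in WT replicates 1 to 3 (log2 fold change -1.32, edgeR adjusted p = 0.0417). The Clec1a call was lost in 8 of 18 alternatives, without KO replicate 2 or 3 or any WT replicate, with the length offset, with the block and among male-pattern libraries (adjusted p at most 0.133). Slc25a11, 2160 bp from Gp1ba, was at 0.17, and Atp13a3, 1644 bp from Gp5, at 0.18, and neither passed. Others lay below 0 and did not pass either, among them Clec9a at -2.14, Trem2 at -0.72 and Pfn1 at -0.55. The groups were apart for Pfn1 and overlapped for Clec9a and Trem2.

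Over the 7 libraries, the 6 protein-coding genes whose log2 CPM was most like the mean of the receptors, by Pearson r among 12302 candidates, were Ly6g6c (0.997), Mkrn1 (0.996), Gad1 (0.996), Ppbp (0.996), Crispld1 (0.995) and Npy (0.995). All 6 were lower on CPM in every KO library than in any WT library, and Crispld1 alone of them did not pass (edgeR adjusted p = 0.224). Per transcript length Crispld1 overlapped between the groups, at 6.13 to 8.55 TPM in KO and 5.11 to 7.34 TPM in WT. With the length offset its log2 fold change was -0.04. The likeness is a description over 7 points that fall into the 2 groups. These genes were picked for likeness to a mean that was itself lower in KO, so their separation and calls follow largely from that choice. Of these Mkrn1, a ubiquitin ligase gene, had a small change, at 88.3 to 99.0 CPM in KO and 165.0 to 216.5 CPM in WT, and Npy, the neuropeptide Y gene, a large one, at 0.1097 to 0.546 CPM in KO and 51.9 to 140.3 CPM in WT.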

How the data were processed

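RNA-seq of sorted LT-HSCs was quantified by the authors per transcript with Salmon 0.11.2 after cutadapt, with mm10, per the submitters' processing notes. The sources used here do not name the transcript set. The authors deposited estimated counts, which need not be whole, and TPM. The kit (SMART-Seq v4) does not mark strand. Transcripts were joined without version to GENCODE M21 (GRCm38): 111787 of 112092 matched, and the unmatched held 0.0836% to 0.123% of estimated counts. Estimated counts were summed to genes and rounded. The main test of KO against WT was edgeR 4.0.16's quasi-likelihood F test (R 4.3.3, TMM scaling, filterByExpr, Benjamini-Hochberg adjustment over 14695 genes, threshold 0.05). SE is the absolute log2 fold change over the square root of F, and CPM use TMM-adjusted library sizes. Where KO libraries are at few reads, the fold depends on the prior count. The test was checked on simulated data.

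The receptors and gene lists were chosen with earlier results of these data known. Named were the receptors, a fixed set of partner genes, B4galt1, up to 4 genes of smallest p in each list, genes overlapping a receptor, and the 6 most like genes (mean of at least 1 CPM, prior count 2). Genes named outside this rule, such as Lat, Clec1a, Slc25a11, Atp13a3, Pfn1, Trem2, Selp, Kit and Slamf1, were chosen after their values were seen. As alternatives, the fit was repeated with no filter, with a strict one (1 CPM in 3 libraries and 50 reads), with upper quartile or RLE scaling, DESeq2 1.42.0, limma voom with sample quality weights (limma 3.58.1), a length offset, the replicate number as a block, libraries with the male pattern, protein-coding genes, and each library left out. Sums over overlapping genes were added after seeing the data.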

Additional observations from a re-analysis of the deposited data

Results flagged for a closer look

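Of 75 quantities examined in the 4 KO libraries, 11 had 1 library far from the other 3, a gap that chance alone produces in about 1 of 20 groups of normally spread values. That rate need not hold here, since some of the quantities lie near 0 and Gp5 enters as a level and as a share. Groups of 3 were not examined. Gp5 reached 59.1 CPM in KO replicate 4 against 27.3 to 32.4 CPM, and took 12.8% of the GPIb-IX-V TPM there against 6.87% to 7.19%. The other quantities high in KO replicate 4 were Plcg2, at 164.1 CPM against 78.7 to 87.4 CPM, and Mmp14, at 18.8 CPM against 10.2 to 10.98 CPM. In KO replicate 1, Lcp2 was low at 98.4 CPM against 149.7 to 151.9 CPM, and B4galt1 was high at 19.3 CPM against 14.6 to 14.9 CPM. Mpig6b was at 0.664 CPM there against 0.0270 to 0.111 CPM, Hba-a1 at 10.7 CPM against at most 0.695 CPM, and Hba-a2 at 10.58 CPM against at most 0.366 CPM. In KO replicate 3, Lat2 was at 29.4 CPM against 20.6 to 21.9 CPM, and Pdpn at 0.0366 CPM, a single read, against 0.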

How the results depend on the processing

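Of 126 receptor values over 18 alternatives 121 kept their direction and their side of the threshold, and 0 reversed. Gp1ba ran from -1.93 to -1.46 with 1 library left out and lost its call in 4 of those 7 fits, and Gp5 ran from -1.03 to -0.38 and passed only with limma voom and quality weights (-1.12). The count of lower receptors ran from 5 to 7. Over all genes, 88 were higher and 244 lower. They were 352 and 514 with DESeq2, and 269 and 439 with limma voom. The length offset gave 214 higher. With the replicate number as a block 58 genes were higher and 182 lower of 14695 tested. In that fit 6 receptors were lower, Gp1ba being at -1.96. KO replicate 4 has no partner and drops out of that fit. The numbers are not shown to pair samples: same-numbered libraries correlated at -0.053, -0.12 and -0.039 in their deviations from group means. With 1 library left out, 30 to 130 were higher and 157 to 279 lower.

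Of 1041 values of other named genes 46 lost their call (Flna, Src, Lat, Ptprj, Mllt3, Ms4a3, S100a9 and Clec1a), 40 gained one and 24 reversed, the last all for genes that did not pass. Adam10 was at -0.007 with RLE and with DESeq2, -0.031 with upper quartile scaling, -0.016 among male-pattern libraries, -0.002 with protein-coding genes and between -0.117 and 0.177 with 1 library left out. Plcg2 was at -0.038 with upper quartile scaling and with the length offset, -0.163 with limma voom, -0.285 with the block and -0.427 among male-pattern libraries. Adam17 was at -0.280 with the length offset, -0.000 with the block and -0.027 among male-pattern libraries. With 1 library left out the ranges were -0.292 to 0.124 for Plcg2, -0.212 to 0.064 for Nfe2, -0.030 to 0.114 for Runx1, -0.467 to 0.037 for B4galt1 and -0.678 to 0.022 for Sept5. The cause was not tested. Gp6 rests on at most 14.1 reads in each KO library, which limits the precision of its fold.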
